A study of Mus musculus with 12 samples.

Results

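The genes described here are 10 genes by which macrophages are commonly assigned to an alternatively activated state or to the borders of the brain: Arg1, Chil3, Tgm2, Irf4, Il4ra, Mrc1, Cd163, F13a1, Lyve1 and Pf4. They were chosen by symbol, with earlier results of these data known. All 10 were found among the 52636 mouse gene identifiers of the deposited count table. RNA was sequenced from primary microglia of wild-type (WT) C57BL/6 mice, taken from pups of postnatal days 1 to 2, grown in mixed glial culture and shaken off. All groups shared that genotype, strain and preparation, 50000 cells per well and 2.5 ng of CSF1 per well, a growth factor on which microglia depend. The cells then received vehicle, full-length NfL (5 µg) or coiled-coil NfL (5 µg) for 24 h; NfL is the neurofilament light chain, a structural protein of axons. Each of the 3 groups had 4 libraries, and the labels place replicates 1 to 4 in batches 1 to 4, so that each batch held 1 library of every group. Where the design text gives a purpose, it is the effect of NfL from outside the cell on microglia; a culture of shaken-off cells can hold other glia and macrophages, and the labels name no purification beyond shaking.

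Alternative activation is the state that macrophages enter when interleukin-4 (IL-4) or interleukin-13 binds a receptor containing the chain encoded by Il4ra. JAK kinases then phosphorylate the transcription factor STAT6, and targets such as Arg1, Chil3, Mrc1, Tgm2 and Irf4 are switched on in mouse macrophages. Border-associated macrophages are resident macrophages of the meninges, the perivascular spaces and the choroid plexus; they are known for high Mrc1, Cd163, Lyve1, F13a1 and Pf4, which microglia in the parenchyma express at low levels. Microglia in culture are known to shift many of these genes.

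Levels are given in CPM, read counts divided by the size of the library and scaled with TMM factors, as mean ± SD over the 4 libraries of a group. Changes are log2 fold changes ± standard error, tested with edgeR's quasi-likelihood F test (two-sided) and adjusted by the Benjamini-Hochberg method over the 14687 genes kept by a filter on low counts; "edgeR adjusted p" refers to this, with a threshold of 0.05. Of the 10 genes 7 passed that filter; Arg1, Chil3 and Lyve1 did not and were not tested. The labels do not tell whether batches were separate cultures or litters; the p-values therefore cover only the spread among these libraries, which may be technical.

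Total counts ran from 20162427 to 31048044 per library. The summed level of 15 microglia markers was 8411 to 9826 CPM in vehicle, 7029 to 7345 CPM with full-length NfL and 8242 to 8879 CPM with coiled-coil NfL, and Siglech, 1 of these markers, had 0 to 3 counts per library; how reads with several matches were counted is not given in the sources used here. Markers of astrocytes and neurons were lower, with sums of 23.8 to 57.8 CPM and 15.7 to 99.0 CPM over the 12 libraries. Oligodendrocyte markers summed to 241 to 296.7 CPM. The 24 border-associated macrophage markers, Mrc1, F13a1 and Stab1 among them, summed to 9269 to 12470 CPM in vehicle. With full-length NfL that sum was 9040 to 9777 CPM, and with coiled-coil NfL 9224 to 11400 CPM. In every library it exceeded the microglia sum, but the lists hold different genes, so the sums give no shares of cells. Neutrophil markers summed to 0.126 to 1.90 CPM, with S100a9, Retnlg and Mpo at 0 counts in every library. Markers of T and NK cells summed to 3.33 to 10.5 CPM, nearly all of it Cd4 (77 to 311 counts per library), with Cd3e, Cd3d, Nkg7, Ncr1 and Il2rb at 0 counts. The 9 monocyte markers, F13a1 among them, summed to 272 to 1710 CPM in vehicle, 83.1 to 745 CPM with full-length NfL and 175 to 1773 CPM with coiled-coil NfL, and were highest in batch 1 in every group. Most of that was Fn1, fibronectin, at 67.5 to 1485 CPM, and Hp, haptoglobin, at 8.21 to 281 CPM, while Ly6c2 had 0 to 24 and Plac8 0 to 2 counts. In bulk RNA, fewer cells of a type and less RNA per cell cannot be told apart, which applies to every value below.

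Full-length NfL changed 5 of the 7 tested genes relative to vehicle. Tgm2 and Il4ra rose 2.10-fold and 1.68-fold, while F13a1 fell 8.29-fold, Irf4 2.26-fold and Mrc1 1.91-fold. Over all tested genes 24.9% were called in this comparison, 14% higher and 10.9% lower. Because the members were chosen with earlier results of these data known, setting their count beside this share is no test. With the replicate number as a block in the model, Pf4 was also called lower, giving 2 higher and 4 lower among the 7; 43.8% of all genes were then called, 21.4% higher and 22.4% lower. The groups did not overlap for 4 of the 7 (Tgm2, Il4ra, F13a1 and Mrc1), and 25.8% of all tested genes showed no overlap between these groups. Cd163 was not called. The count of 5 fell to 3 when vehicle replicate 2, 3 or 4 or full-length replicate 2 or 4 was left out, in each case with 2 genes higher and 1 lower.

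**Figure D1:**
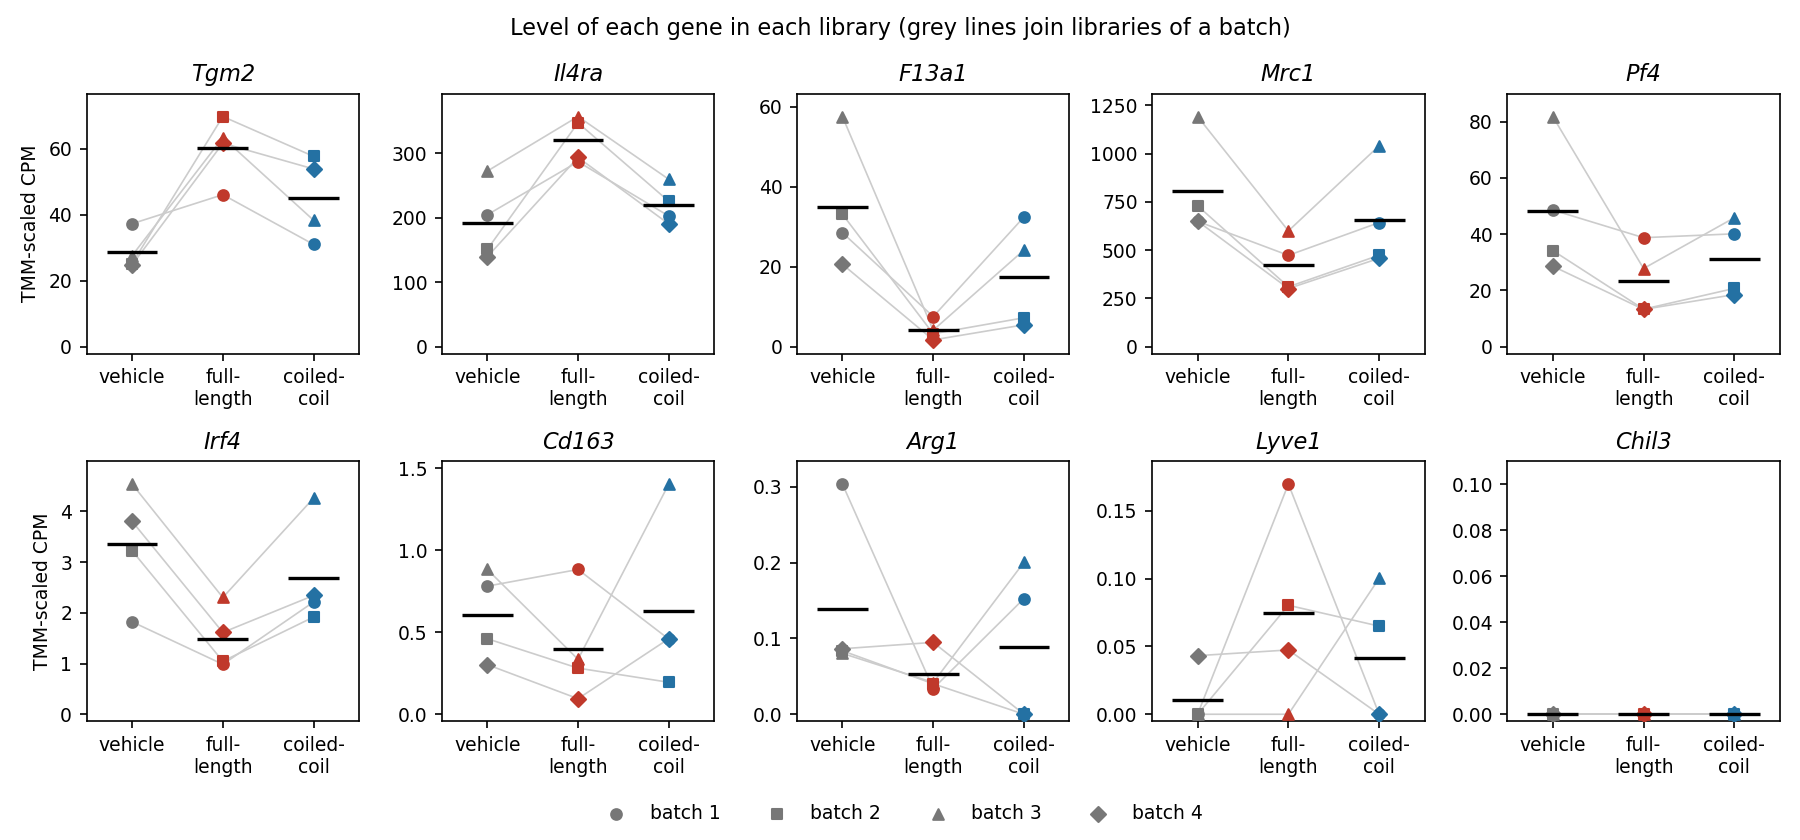
TMM-scaled CPM (y axis, linear, a separate scale for each gene) of the 10 genes in the 12 libraries, by treatment (x axis). Points are libraries, marker shapes are batches, grey lines join the libraries of a batch and black bars are group means; the vehicle and full-length points do not overlap for Tgm2, Il4ra, F13a1 and Mrc1, and Chil3 is at 0 in every library.

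**Figure D2:**
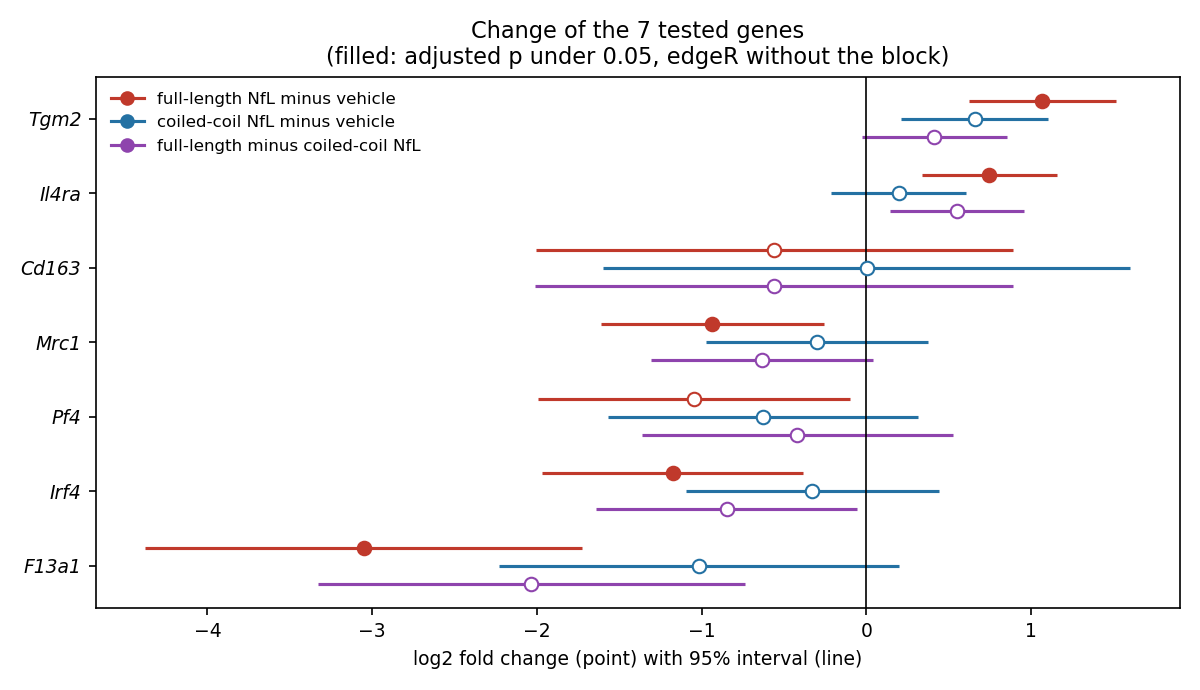
Log2 fold change (point) with its 95% interval (line) for the 7 tested genes in the 3 comparisons. Filled points have an edgeR adjusted p under 0.05 without the block; these are Tgm2, Il4ra, Mrc1, Irf4 and F13a1, all for full-length NfL against vehicle.

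Il4ra encodes the receptor chain shared by the IL-4 and IL-13 receptors (chromosome 7, 125552120 to 125579474, plus strand, GRCm38). In vehicle it stood at 204, 151, 272 and 139 CPM in replicates 1 to 4. With full-length NfL it stood at 287, 347, 357 and 293 CPM, and with coiled-coil NfL at 203, 225, 259 and 190 CPM. All 4 full-length libraries were above all 4 vehicle libraries and all 4 coiled-coil libraries, whereas vehicle and coiled-coil libraries overlapped. The group means were 192 ± 60.7, 321 ± 36.04 and 219 ± 30.4 CPM. Against vehicle, Il4ra rose by 0.74 ± 0.19 (95% interval 0.33 to 1.15; edgeR adjusted p = 0.0145), with a higher level in 4 of 4 batches. The call was kept without any single library (edgeR adjusted p at most 0.0375) and was lost without the 3 libraries of batch 2 (0.61, adjusted p = 0.133) or of batch 4 (0.66, adjusted p = 0.0875). Exons of Gm44876, on the opposite strand, overlap 9.51% of the exon bases of Il4ra, and the strand setting of the counting is not given.

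Of 16 genes of IL-4 and IL-13 signalling, 14 were tested, and 4 rose and 1 fell with full-length NfL. Over all tested genes 14% rose and 10.9% fell (with the block 21.4% and 22.4%). The median change of the 14 was 0.17, against -0.02 for all tested genes. Il2rg, the common gamma chain that pairs with the Il4ra chain, rose from 54.9 to 154 CPM (1.49 ± 0.32; edgeR adjusted p = 0.00707), and Jak2, a kinase of this receptor family, rose by 0.48 ± 0.09 (edgeR adjusted p = 0.00337). Irs2, an adaptor phosphorylated downstream of the receptor, fell from 27.3 to 7.78 CPM (-1.80 ± 0.26; edgeR adjusted p = 0.00108). The remaining called gene, Ptpn6, a phosphatase that acts on JAK-STAT signalling, was 0.55 ± 0.13 higher (edgeR adjusted p = 0.00923) and was named after its value was seen. Stat6 itself was at 298 CPM in vehicle and 350 CPM with full-length NfL, a difference of 0.23 ± 0.10 that was not called (edgeR adjusted p = 0.105), but was with the block (adjusted p = 0.0244) and without full-length replicate 1 (0.31, adjusted p = 0.0317). With the block, 6 of the 14 were higher and 3 lower. The ligands were almost undetected: Il4 had 0 to 2 counts and Il13 0 to 1 count per library.

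Irf4 encodes a transcription factor used in alternative activation and in lymphocytes (chromosome 13, 30749226 to 30766976, plus strand). It was a low gene, with 26 to 113 counts per library. Its level was 1.82, 3.23, 4.54 and 3.80 CPM in the vehicle replicates, 0.985, 1.05, 2.30 and 1.61 CPM with full-length NfL, and 2.21, 1.92, 4.26 and 2.34 CPM with coiled-coil NfL. The groups overlapped, because vehicle replicate 1 was lower than full-length replicate 3, but within each of the 4 batches the full-length library was below the vehicle library. Irf4 fell from 3.35 ± 1.15 to 1.49 ± 0.61 CPM, a change of -1.18 ± 0.36 (95% interval -1.97 to -0.39; edgeR adjusted p = 0.0343; with the block -1.19, adjusted p = 0.00075). The call was lost on leaving out vehicle replicate 2, 3 or 4 or full-length replicate 1, 2 or 4 (adjusted p 0.0621 to 0.0938; change -1.21 to -0.99). Of the 9 interferon regulatory factors 8 were tested, and apart from Irf4 the only one called was Irf7, an interferon-induced regulator of interferon genes, which rose from 447 to 1735 CPM (1.96 ± 0.50; edgeR adjusted p = 0.0149). The median change of the 8 was -0.02, the same as for all tested genes. With the block 3 were higher and 2 lower. Of all tested genes 24.9% were called, and 43.8% with the block.

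Tgm2 and F13a1 encode transglutaminases, enzymes that cross-link proteins: Tgm2 the tissue enzyme, and F13a1 the A subunit of coagulation factor XIII, which macrophages also make. Tgm2 (chromosome 2, 158116402 to 158146436, minus strand) stood at 37.3, 25.2, 27.6 and 24.8 CPM in the vehicle replicates. With full-length NfL it stood at 46.1, 69.8, 63.4 and 61.7 CPM, and with coiled-coil NfL at 31, 57.7, 38.3 and 53.9 CPM. All 4 full-length libraries were above all vehicle libraries, and in batch 1 the levels of the 3 libraries lay closest together. Tgm2 rose from 28.7 ± 5.84 to 60.2 ± 10.05 CPM, a change of 1.07 ± 0.21 (95% interval 0.62 to 1.51; edgeR adjusted p = 0.00404), and was higher in 4 of 4 batches. The call was kept without any single library (adjusted p at most 0.0158) and lost without the 3 libraries of batch 4 (0.99, adjusted p = 0.0608). Exons of Rprd1b and Gm20412, on the opposite strand, overlap 8.03% and 13.7% of the exon bases of Tgm2, and the strand setting of the counting is not given in the sources used here. Gm20412 had no count in any library, and Rprd1b was at 35.7 CPM in vehicle and 34.3 CPM with full-length NfL (-0.06; edgeR adjusted p = 0.623).

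F13a1 showed the largest change of the 7 tested genes (chromosome 13, 36867178 to 37050244, minus strand). It stood at 28.5, 33.1, 57.6 and 20.6 CPM in the vehicle replicates and at 7.54, 3.26, 4.14 and 1.71 CPM with full-length NfL. With coiled-coil NfL the values were 32.5, 7.25, 24.2 and 5.49 CPM. Every full-length library was below every vehicle library, while the coiled-coil libraries split, with replicates 1 and 3 inside the range of the vehicle libraries and replicates 2 and 4 inside that of the full-length libraries. F13a1 fell from 35.0 ± 15.9 to 4.16 ± 2.47 CPM, a change of -3.05 ± 0.61 (95% interval -4.38 to -1.73; edgeR adjusted p = 0.00483). The within-batch log2 ratios were -1.91, -3.31, -3.76 and -3.52 in batches 1 to 4, and the call was kept without any single library or batch (adjusted p at most 0.0446). Of 10 transglutaminase genes 4 were tested; Tgm2 and F13a1 went in opposite directions, Tgm4 differed by 0.30 ± 0.11 without a call (edgeR adjusted p = 0.0579; with the block 0.0251; 0.0416 to 0.0472 on leaving out full-length replicate 3, coiled-coil replicate 1 or coiled-coil replicate 4), and Tgm5, Tgm6, Tgm7 and Epb42 had no count in any library.

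Mrc1 encodes the mannose receptor CD206, an endocytic receptor for glycoproteins that marks both alternatively activated and border-associated macrophages (chromosome 2, 14229392 to 14332057, plus strand). In the vehicle replicates it stood at 649, 730, 1192 and 651 CPM. With full-length NfL it stood at 473, 310, 600 and 301 CPM, and with coiled-coil NfL at 643, 474, 1041 and 458 CPM. Batch 3 had the highest level in every group, and all full-length libraries were below all vehicle libraries. Mrc1 fell from 805 ± 260 to 421 ± 143 CPM, a change of -0.94 ± 0.31 (95% interval -1.61 to -0.26), and the edgeR adjusted p of 0.0457 lay just inside the threshold. With the block the change was -0.95 with an adjusted p of 0.000131, and Mrc1 was lower in 4 of 4 batches. The call without the block was lost when any of the 4 vehicle libraries, full-length replicate 1, 2 or 4 or coiled-coil replicate 1 was left out (adjusted p 0.0504 to 0.118), with a change between -1.02 and -0.68. Of the other 3 genes of the mannose receptor family 2 were tested, and none was called without the block. The one with the smallest p, Pla2r1, a phospholipase A2 receptor, was at 2.34 CPM in vehicle and 3.79 CPM with full-length NfL (0.69 ± 0.38, edgeR adjusted p = 0.201). With the block Ly75, at 0.373 CPM in vehicle and 0.851 CPM with full-length NfL, was called higher, as were 21.4% of all tested genes.

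Pf4 encodes platelet factor 4 (CXCL4), a chemokine of platelets that is also transcribed in border-associated macrophages (chromosome 5, 90772435 to 90773383, plus strand). The vehicle replicates stood at 48.6, 34.2, 81.8 and 28.6 CPM. The full-length replicates stood at 38.7, 13.3, 27.8 and 13.3 CPM, and the coiled-coil replicates at 40.1, 20.7, 45.8 and 18.5 CPM. The groups overlapped, but within each batch the order was the same: vehicle highest, coiled-coil NfL next and full-length NfL lowest. The difference between full-length NfL and vehicle was -1.05 ± 0.44 (95% interval -1.995 to -0.10; 48.3 ± 23.9 against 23.3 ± 12.4 CPM) and was not called without the block (edgeR adjusted p = 0.0972). With the block it was -1.08 and was called (adjusted p = 0.000334), as it was without full-length replicate 1 (-1.41, adjusted p = 0.0381). The other platelet and megakaryocyte markers together were low, and the summed level of 10 such markers, Pf4 included, was 31.4 to 85.0 CPM in vehicle and 15.0 to 41.3 CPM with full-length NfL. Among 4 tested genes of the platelet chemokine list none was called without the block, and with it only Pf4 was. Srgn, the proteoglycan that stores Pf4 in granules, differed by 0.23 ± 0.22 (edgeR adjusted p = 0.461).

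Cd163, the scavenger receptor for haemoglobin bound to haptoglobin, was barely detected, with 2 to 28 counts per library (chromosome 6, 124304656 to 124330527, plus strand). Its level was 0.781, 0.461, 0.884 and 0.303 CPM in the vehicle replicates, 0.883, 0.281, 0.335 and 0.0949 CPM with full-length NfL, and 0.458, 0.195, 1.40 and 0.461 CPM with coiled-coil NfL. The 3 groups overlapped throughout. The difference between full-length NfL and vehicle was -0.56 ± 0.67 (95% interval -2.01 to 0.89; edgeR adjusted p = 0.557), an interval that spans the changes measured for Mrc1 and Irf4 as well as that of Il4ra. Of 11 genes of haemoglobin and haem handling 10 were tested, Cd163 included, and 3 rose and 1 fell (with the block 5 and 2). Their median change was 0.18, and 24.9% of all tested genes were called (43.8% with the block). Hpx, haemopexin, had 0 to 6 counts and was not tested. Hmox1, the inducible haem oxygenase, rose from 611 to 1679 CPM (1.46 ± 0.31, edgeR adjusted p = 0.00692) and Blvrb, a biliverdin reductase, from 93.2 to 186 CPM (1.00 ± 0.18, edgeR adjusted p = 0.0029). The call of Hmox1 was lost without batch 2 (edgeR adjusted p = 0.0814) or batch 4 (0.0917), and that of Blvrb without batch 4 (0.0559). Slc48a1, a haem transporter, rose by 0.77 ± 0.25 (edgeR adjusted p = 0.0423), and Lrp1, the receptor for haem bound to haemopexin, named after its value was seen, fell by 0.44 ± 0.14 (edgeR adjusted p = 0.043). Both of these calls were fragile: that of Slc48a1 was lost on leaving out vehicle replicate 2, 3 or 4, full-length replicate 1, 2 or 4, or replicate 2 or 4 of coiled-coil NfL (adjusted p 0.0537 to 0.111), and that of Lrp1 on leaving out vehicle replicate 1, 2 or 4, any full-length replicate, or replicate 2 or 4 of coiled-coil NfL (adjusted p 0.0527 to 0.137).

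Lyve1, a hyaluronan receptor of lymphatic endothelium and of border-associated macrophages, had 0, 0, 0 and 1 count in the vehicle replicates, 5, 2, 0 and 1 in the full-length replicates and 0, 2, 2 and 0 in the coiled-coil replicates (chromosome 7, 110850607 to 110863239, minus strand). Only full-length replicate 1 exceeded 3 counts, so no fold change is given. Of 13 genes of hyaluronan handling 9 were tested, and 1 rose and 2 fell (with the block 2 and 3). The share called over all tested genes was 24.9% (43.8% with the block). Cemip2, a cell-surface hyaluronidase, rose by 0.65 ± 0.12 (edgeR adjusted p = 0.00363). Stab1, a scavenger receptor of macrophages, fell by 0.41 ± 0.12 (edgeR adjusted p = 0.0303), and Cd44, the main hyaluronan receptor of leukocytes, fell by 0.50 ± 0.16 (edgeR adjusted p = 0.0435). The Stab1 call was lost on leaving out vehicle replicate 2 or 3 or full-length replicate 2, 3 or 4 (adjusted p 0.0583 to 0.0791). The Cd44 call was lost on leaving out vehicle replicate 1, 2 or 4, full-length replicate 2 or 4, or replicate 3 or 4 of coiled-coil NfL (adjusted p 0.0551 to 0.122).

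Arg1 encodes arginase 1, which turns arginine into ornithine and urea and competes with nitric oxide synthase for its substrate (chromosome 10, 24915221 to 24927484, minus strand). It had 7, 2, 2 and 2 counts in the vehicle replicates, 1, 1, 1 and 2 in the full-length replicates and 4, 0, 4 and 0 in the coiled-coil replicates. All full-length libraries were at or under 3 counts, a level at which no difference can be read. Nos2, which makes nitric oxide in activated macrophages, went up from 1.27 to 10.4 CPM with full-length NfL (3.02 ± 0.43; edgeR adjusted p = 0.00101), in 4 of 4 batches and without overlap between the groups. Of 12 tested genes of arginine and polyamine metabolism 4 rose and none fell (with the block 5 and 3). Their median change was 0.13, and 24.9% of all tested genes were called (43.8% with the block). Amd1, which supplies the aminopropyl donor for polyamines, rose by 0.81 ± 0.15 (edgeR adjusted p = 0.00343) and Slc7a1, a transporter of arginine, from 38.1 to 78.2 CPM (1.03 ± 0.30; edgeR adjusted p = 0.0269). Srm, spermidine synthase, named after its value was seen, rose by 0.53 ± 0.16 (edgeR adjusted p = 0.0348). The Slc7a1 call was lost on leaving out vehicle replicate 1, 3 or 4 or full-length replicate 2 or 4 (adjusted p 0.0512 to 0.0933), and the Srm call on leaving out vehicle replicate 1, 2 or 3 or full-length replicate 1, 2 or 4 (adjusted p 0.0536 to 0.0873).

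Chil3, which encodes the chitinase-like protein Ym1, had no count in any of the 12 libraries (chromosome 3, 106147554 to 106167564, minus strand). A count of 0 allows up to 3 counts, or 0.0975 to 0.151 CPM in a library of these depths, counting error only. Chil4 (Ym2) and Retnla (Fizz1), which alternatively activated mouse macrophages also express, had no count in any library either. Chil3 and Chil4 are near copies: over the coding sequence 1139 of 1194 aligned bases (95.4%) are the same in the GENCODE M21 transcripts, and 28.5% of the 50-base stretches of Chil3 transcripts, the read length here, also occur in Chil4 or Gm6522, so such reads could be left uncounted. The remaining 71.5% occur in no other gene of that annotation. The 60-base stretch of the coding sequence in which both differ most, from base 500 to base 559, is shown 5′ to 3′ because a read from it separates them; capitals mark the 10 bases that differ.
Chil3: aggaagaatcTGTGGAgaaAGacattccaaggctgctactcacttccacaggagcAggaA
Chil4: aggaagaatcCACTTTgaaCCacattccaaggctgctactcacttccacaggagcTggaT
In the protein-coding transcripts of the 7 tested genes all 50-base stretches were specific to the gene, except for Tgm2 (81.2% specific) and Cd163 (99.9%). Counted exons outside those transcripts were not covered. Exons of Gm44876 and Gm30489, on the opposite strand, overlap 9.51% of the exon bases of Il4ra and 1.1% of those of F13a1. Of 8 chitinase-like genes only Ctbs, a lysosomal chitobiase, was tested, and it was at 46.5 CPM in vehicle and 48.1 CPM with full-length NfL (0.05 ± 0.06; edgeR adjusted p = 0.549).

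The wider lists overlap with the 10 genes and with each other, and were likewise chosen with earlier results of these data known. Their counts and medians are descriptions and not tests. Of 26 genes that IL-4 is known to induce in macrophages, 15 were tested; with full-length NfL 2 rose and 5 fell, and the median change was -0.999, against -0.02 for all tested genes. With the block 2 were higher and 10 lower. Over all tested genes 14% rose and 10.9% fell (with the block 21.4% and 22.4%). Besides Irf4 and Mrc1, the genes that fell were Ccl24, an eosinophil chemokine (1.51 to 0.247 CPM; -2.57 ± 0.57; edgeR adjusted p = 0.00771), Matk, a kinase that restrains Src kinases (4.67 to 0.582 CPM; -2.95 ± 0.74; edgeR adjusted p = 0.0137), and Flt1, a receptor of VEGF (59.5 to 26 CPM; -1.20 ± 0.33; edgeR adjusted p = 0.0207). The Flt1 call was lost on leaving out vehicle replicate 2 or 4 or full-length replicate 3 (adjusted p 0.0514 to 0.0717). Besides Tgm2, the gene that rose was Il1rn, the IL-1 receptor antagonist, which inflammatory stimuli induce as well; it was named after its value was seen, rose from 19.4 to 70.4 CPM (1.86 ± 0.55; edgeR adjusted p = 0.0284), and lost the call on leaving out vehicle replicate 1, 2 or 4 or full-length replicate 2 or 3 (adjusted p 0.0561 to 0.069).

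Of 24 border-associated macrophage markers 20 were tested, and 2 rose and 6 fell with full-length NfL, with a median change of -0.40. Among all tested genes 14% rose and 10.9% fell. Besides F13a1, Mrc1 and Stab1, Dab2, an endocytic adaptor, fell by 0.80 ± 0.12 (edgeR adjusted p = 0.00136) and Gas6, a ligand of the TAM receptors, from 1080 to 693 CPM (-0.64 ± 0.14; edgeR adjusted p = 0.00705). Colec12, a scavenger collectin named after its value was seen, fell from 714 to 377 CPM (-0.92 ± 0.24; edgeR adjusted p = 0.0174), a call lost on leaving out vehicle replicate 1 or full-length replicate 2 or 4 (adjusted p at most 0.056). The 2 that rose were Siglec1 (CD169), a sialic acid receptor that interferon also induces, from 743 to 2088 CPM (1.49 ± 0.33; edgeR adjusted p = 0.00798), and Cd209f, a C-type lectin named after its value was seen, from 54, 2, 2 and 0 counts in the vehicle replicates to 300, 348, 63 and 172 (edgeR adjusted p = 0.0152). Ms4a7, Cbr2 and Folr2 were not called, at 0.51 ± 0.25 (edgeR adjusted p = 0.163), 1.73 ± 0.59 (0.0506) and 0.24 ± 0.39 (0.664). With the block Ms4a7 (adjusted p = 0.00508) and Cbr2 (0.00877) were called higher, as they were without vehicle replicate 3 (0.73 with adjusted p = 0.0441, and 2.60 with 0.00666); Cbr2, just outside the threshold, was also called without full-length replicate 4 (0.0466), without coiled-coil replicate 1 (0.0383), without batch 3 (0.0154), with DESeq2 (0.0106), limma-voom (0.0358), DESeq2 size factors (0.0486), upper-quartile factors (0.0492), no filter (0.0434) and a filter of 1 CPM in 4 libraries (0.0466). The whole list with the block gave 6 higher and 8 lower, where 21.4% of all tested genes were higher and 22.4% lower.

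Microglia markers moved in the same comparison: of 13 tested, 1 rose and 5 fell, with a median change of -0.46 (with the block 3 and 9). For this and the next lists, the shares over all tested genes were 14% higher and 10.9% lower (21.4% and 22.4% with the block). Microglia markers went both ways. Gpr34 stood at 43.3 CPM in vehicle and 4.37 CPM with full-length NfL, and Aif1 at 156 and 553 CPM, both named after their values were seen. Cx3cr1, the fractalkine receptor, fell from 1218 to 668 CPM (-0.87 ± 0.18; edgeR adjusted p = 0.00556), and Csf1r, the receptor for CSF1, fell by 0.43 ± 0.14 (edgeR adjusted p = 0.0362), a call lost on leaving out vehicle replicate 1, 2 or 3 or full-length replicate 2 or 4 (adjusted p at most 0.101). P2ry12 was at 41.8 and 37.6 CPM (-0.16 ± 0.29; edgeR adjusted p = 0.711) and Tmem119 at 11.6 and 19.2 CPM (0.72 ± 0.32; edgeR adjusted p = 0.115; with the block 0.00914; without vehicle replicate 1 1.15 with 0.011). Of 9 astrocyte and 8 neuron markers tested, 1 of each was lower (with the block 7 of each), with medians of -0.63 and -1.15. Of 4 monocyte markers tested, 1 was lower (F13a1 itself; with the block 3), with a median of -1.03; Fn1 stood at 608 CPM in vehicle and 220 CPM with full-length NfL (edgeR adjusted p = 0.237; with the block 0.000143). Of 5 platelet and megakaryocyte markers tested none was called (with the block 2 lower), with a median of -0.95, and of 9 oligodendrocyte markers 1 was higher (with the block 2 higher and 5 lower), with a median of -0.60. The part that a changed share of such cells could have in the falls of Mrc1, F13a1, Pf4 and Irf4 was not tested.

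**Figure D3:**
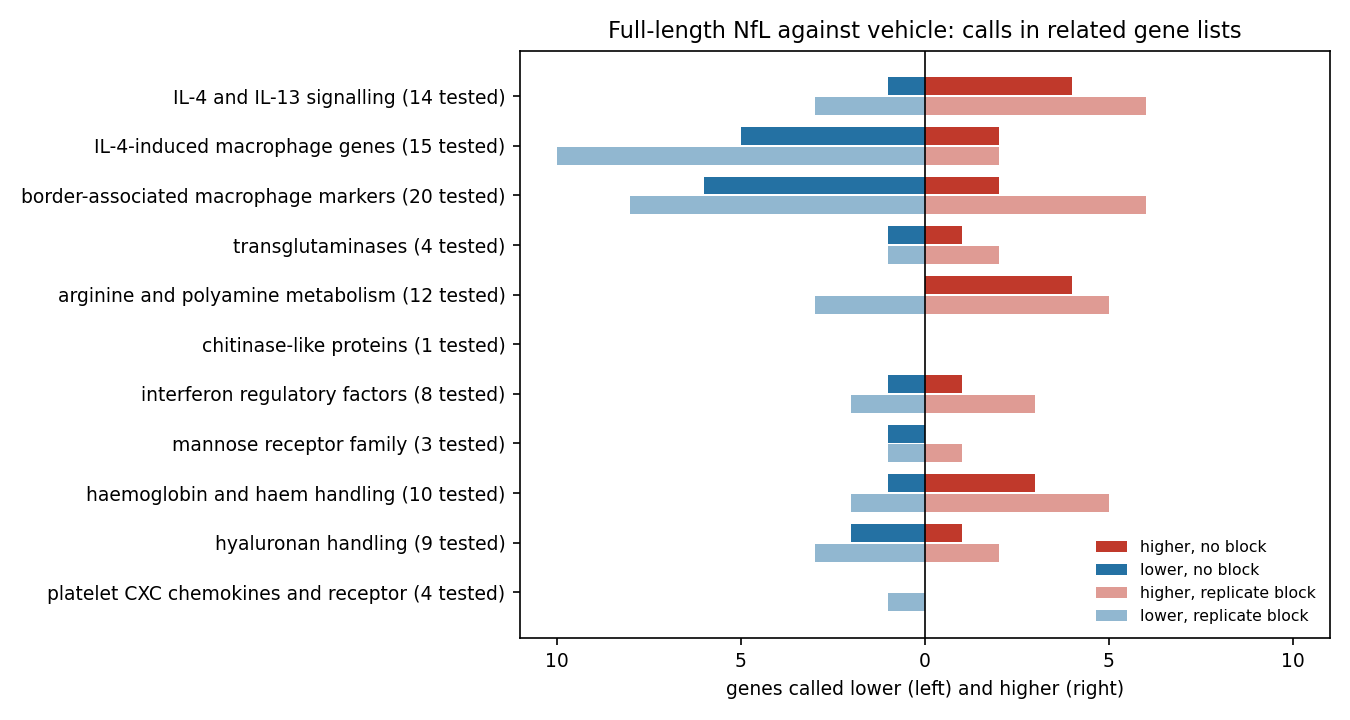
Number of genes called lower (bars to the left) and higher (bars to the right) in each list for full-length NfL against vehicle, without the replicate block (dark) and with it (light). Among these 11 lists, the dark bars to the left are longest for the border-associated macrophage markers (6 of 20 tested lower) and for the genes that IL-4 induces (5 of 15 tested lower). Bars are counts, and these 2 lists have the most tested genes. Over all tested genes 10.9% were lower without the block and 22.4% with it. Microglia markers (5 of 13 tested lower without the block) are not drawn.

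Coiled-coil NfL was compared with vehicle in the same way. None of the 7 tested genes was called by edgeR, by DESeq2 or by limma-voom, and edgeR called 0% of all genes (0.0136% with the block). The groups overlapped for all 7, whereas 2.72% of all genes showed no overlap. Unadjusted, 1 of the 7 had an edgeR p under 0.05, against 7.37% of all genes; that gene was Tgm2, at 45.2 ± 12.7 CPM against 28.7 ± 5.84 CPM (0.66 ± 0.20; 95% interval 0.21 to 1.1; edgeR adjusted p = 0.646), higher in 3 of 4 batches. For F13a1 the difference was -1.02 ± 0.56 (edgeR adjusted p = 0.732), with within-batch log2 ratios of 0.19, -2.18, -1.25 and -1.89. Pf4 and Mrc1 were lower in 4 of 4 batches, by -0.63 ± 0.43 and -0.30 ± 0.31 (edgeR adjusted p = 0.789 and 0.855; with the block 0.112 and 0.162). Il4ra differed by 0.20 ± 0.19 (95% interval -0.21 to 0.60), Irf4 by -0.33 ± 0.35 (-1.1 to 0.44) and Cd163 by 0.003 ± 0.735 (-1.6 to 1.6). The intervals hold the value estimated for full-length NfL in Tgm2, Mrc1, Pf4 and Cd163, but not in Il4ra, Irf4 or F13a1, where the nearest bounds were 0.60, -1.1 and -2.23. This leaves out the error of the full-length estimate and does not test whether both forms differ. The direct comparison is given below. No list held a called gene.

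The list genes with the smallest p for coiled-coil NfL were not called by edgeR either. Il2rg differed by 1.16 (edgeR adjusted p = 0.621) and was called by DESeq2 (adjusted p = 0.0306), Siglec1 by 1.08 (edgeR adjusted p = 0.646), Irf7 by 1.30 (0.662), Ass1, an enzyme that recycles citrulline to arginine, by 1.31 (0.676) and Alox15, a lipoxygenase, by -1.79 (0.685). Stab1 (-0.24), Blvra (0.17), Ctbs (0.14), Tgm4 (0.15), Pla2r1 (0.56) and Cxcr3, a chemokine receptor for which Pf4 is a ligand (0.47), had edgeR adjusted p of 0.674 to 0.808. The same vehicle libraries serve both comparisons, so these values are given beside those for full-length NfL and not as a second test.

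**Figure D4:**
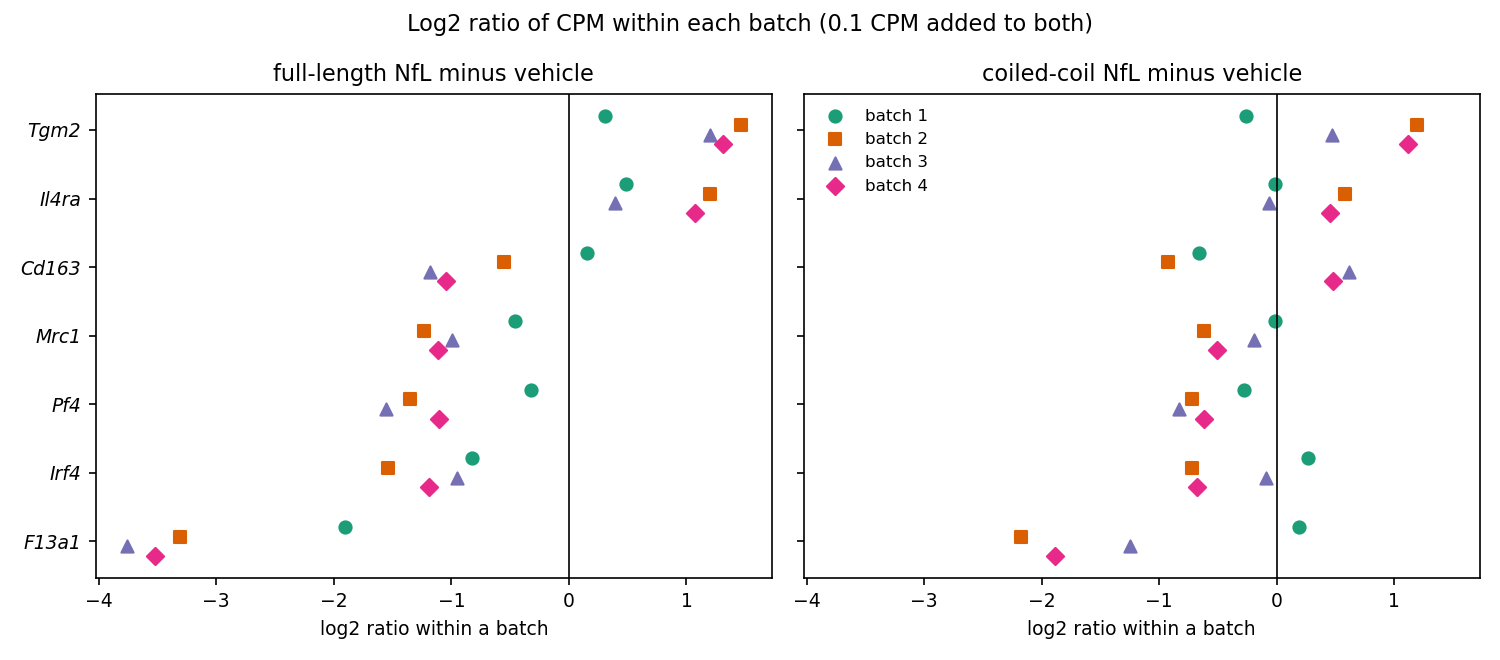
Log2 ratio of CPM to the vehicle library of the same batch (x axis, 0.1 CPM added to both values) for full-length NfL (left) and coiled-coil NfL (right), 1 point per batch and gene. On the left, all 4 batches lie on the same side of 0 for 6 of the 7 genes, Cd163 being the exception; on the right this holds for Mrc1 and Pf4, and batch 1 lies on the other side of 0 from the rest for Tgm2, F13a1 and Irf4.

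Full-length against coiled-coil NfL, both given at 5 µg for 24 h, tests the difference between both forms directly. Without the block none of the 7 genes was called, 3 had an unadjusted p under 0.05 (21.6% of all genes did), and edgeR called 2.72% of all genes; limma-voom called none of the 7. With the block 4 of the 7 were called, 1 higher and 3 lower, against 19.1% of all genes (8.99% higher and 10.1% lower). Il4ra was higher with full-length NfL by 0.55 ± 0.19 (95% interval 0.14 to 0.96; edgeR adjusted p = 0.122; with the block 0.56, adjusted p = 0.0117), in 4 of 4 batches and without overlap, which 12.5% of all genes showed. F13a1 was lower by -2.04 ± 0.60 (-3.33 to -0.74; edgeR adjusted p = 0.0823; with the block -1.92, adjusted p = 0.005). Irf4 (-0.85 ± 0.36; edgeR adjusted p = 0.203; with the block 0.0142) and Mrc1 (-0.63 ± 0.31; edgeR adjusted p = 0.261; with the block 0.00547) were lower in 4 of 4 batches. With DESeq2 the calls were Il4ra (adjusted p = 0.0437) and F13a1 (adjusted p = 0.0173). Pf4 (-0.42 ± 0.43, 95% interval -1.36 to 0.53), Tgm2 (0.41 ± 0.20, -0.03 to 0.85) and Cd163 (-0.56 ± 0.67, -2.01 to 0.89) were called neither by edgeR with or without the block nor by DESeq2 or limma-voom, and these intervals do not show that both forms act alike.

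The 10 genes differed widely in level once length was taken into account. Per kilobase of exon, Mrc1 was highest in vehicle at 126 CPM per kb, followed by Pf4 at 67.0, Il4ra at 31.9, Tgm2 at 6.23, F13a1 at 5.19, Irf4 at 0.683 and Cd163 at 0.111 CPM per kb. In this order the libraries of Mrc1 and Pf4, of Pf4 and Il4ra and of Tgm2 and F13a1 overlapped, and the other neighbours did not. With full-length NfL the order became Mrc1 (66.1), Il4ra (53.5), Pf4 (32.3), Tgm2 (13.1), F13a1 (0.618), Irf4 (0.303) and Cd163 (0.0730 CPM per kb), with overlap between Mrc1 and Il4ra, Il4ra and Pf4, and F13a1 and Irf4. With coiled-coil NfL the order was that of vehicle, and the overlapping neighbours were Pf4 and Il4ra, and F13a1 and Irf4. Cd163, Arg1 and Lyve1 were thus near 0 in the same libraries in which Mrc1 and Pf4 were abundant.

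Much of the variation of the genes followed the batch. Batch accounted for 58.8% of the variance of log2 CPM of Pf4, 51.5% for Cd163, 48% for Mrc1 and 40.6% for Irf4, against 34.8%, 13%, 46.5% and 52.1% for treatment. For Il4ra, F13a1 and Tgm2 the batch share was 23.8%, 21.3% and 4.86%, and treatment accounted for 62.7%, 70.9% and 70.8%. Over the 12 libraries, which share treatment and batch, Pearson's r of log2 CPM was 0.90 between Mrc1 and Pf4, 0.87 between F13a1 and Pf4, 0.87 between Mrc1 and F13a1 and -0.90 between Tgm2 and F13a1. With batch means removed r was 0.98 between Mrc1 and F13a1, -0.95 between Tgm2 and F13a1 and -0.96 between Il4ra and Irf4. These describe the libraries and carry no test.

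The genes most like each member over the 12 libraries, among 9251 or 9252 genes of at least 5 CPM, were as follows. Mrc1 was most like Col14a1 (r = 0.98), Maml2 (0.974) and Tnfsf12 (0.955), and with batch means removed like Dab2 (0.994), Nedd4 (0.993) and Abca9 (0.992). F13a1 was most like Smim3 (0.973), Fcgr3 (0.965) and Aplp2 (0.964), and with batch means removed like Serpine2 (0.997), Samd4 (0.996) and Gpx3 (0.995). Pf4 was most like Mpst (0.964), Spef1 (0.962) and Mtus1 (0.958), and with batch means removed like Hgsnat (0.983), Zfp39 (0.978) and Disp3 (0.978). Irf4 was most like Cd34 (0.972), Gpr155 (0.967) and Hpgds (0.959), and with batch means removed like Osbpl11 (0.997), Lpar6 (0.993) and Rasa1 (0.993). Il4ra was most like Slc2a9 (0.981), Kcnab2 (0.969) and Gna15 (0.967), and with batch means removed like Flii (0.998), Derl1 (0.996) and Pgm1 (0.996). Tgm2 was most like Gtf3c5 (0.97), Nr1h3 (0.96) and Cd300e (0.955), and with batch means removed like Snx11 (0.988), Rnf157 (0.984) and Clec4e (0.98). Cd163, with few counts, had the weakest likeness, to Fbxl19 (0.926), Nfkb1 (0.88) and Nudt16l1 (0.876), and with batch means removed to Fh1 (0.883), Fbxl19 (0.863) and Zfp729b (0.842).

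Promoters of Mrc1, F13a1 and Pf4 are shown because these genes followed each other across the 12 libraries. With batch means removed, Irf4 followed Mrc1 (r = 0.964) and F13a1 (0.957) more closely than Pf4 did (0.941 and 0.936). The promoter of Irf4 is not printed. RefSeq promoter sequences (GRCm38.p6, 250 bases before to 50 bases after the start) matched 7 of the 10 genes with 8 entries; Arg1, Tgm2 and Lyve1 had none. They were searched on both strands for TTCNNNNGAA (the STAT6 site), TTCNNNGAA (the GAS site of other STAT proteins), GAAANNGAAA (the interferon response element) and GAGGAAGT (the core of the site of PU.1, a transcription factor of macrophages), which 6.95%, 8.3%, 3.44% and 3.2% of 32851 promoters hold. The promoters follow 5′ to 3′ along the gene, with a match in capitals.
F13a1, chr13:37049164-37049463, minus strand: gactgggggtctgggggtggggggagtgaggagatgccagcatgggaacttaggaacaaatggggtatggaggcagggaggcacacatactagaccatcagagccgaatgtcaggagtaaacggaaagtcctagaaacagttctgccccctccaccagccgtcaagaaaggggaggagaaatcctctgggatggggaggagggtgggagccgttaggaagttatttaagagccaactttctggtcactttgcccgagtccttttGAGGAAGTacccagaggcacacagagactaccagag
Pf4, chr5:90772185-90772484, plus strand: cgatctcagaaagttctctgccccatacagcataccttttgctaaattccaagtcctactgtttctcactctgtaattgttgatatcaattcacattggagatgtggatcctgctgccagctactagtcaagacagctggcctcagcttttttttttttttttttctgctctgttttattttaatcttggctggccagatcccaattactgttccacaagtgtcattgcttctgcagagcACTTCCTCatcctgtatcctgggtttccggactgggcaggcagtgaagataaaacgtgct
Mrc1, chr2:14229164-14229463, plus strand: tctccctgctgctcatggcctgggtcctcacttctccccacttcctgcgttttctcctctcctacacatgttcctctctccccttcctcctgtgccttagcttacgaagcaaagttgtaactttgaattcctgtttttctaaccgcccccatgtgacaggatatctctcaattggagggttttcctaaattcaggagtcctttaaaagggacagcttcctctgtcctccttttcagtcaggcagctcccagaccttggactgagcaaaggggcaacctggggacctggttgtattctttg
The printed entry of F13a1 held the PU.1 core after its start, which lies inside the gene. Its second entry (37050195 to 37050494, not printed) spans the gene start given above. Pf4 held the PU.1 core on the other strand before its start, and Mrc1 held none of the 4 motifs in this window. Among the remaining entries Chil3 held a GAS site, and the second entry of F13a1 and those of Il4ra, Irf4 and Cd163 held no match. A match describes letters and not binding, and no match says only that these letters are not in this window.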

How the data were processed

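The table the authors deposited holds raw counts by Ensembl gene identifier, unnormalized: whole numbers whose totals differ between the 12 libraries. Per the labels' protocols, a stranded mRNA kit was used, with single-end reads of 50 bases; per the submitters' processing notes, GSNAP and GRCm38 were used. Not given in the sources used here are the aligner's version, the counter, its annotation and whether it used strand. Symbols, coordinates and exon lengths come from GENCODE M21 (99.7% of identifiers matched). filterByExpr kept 14687 genes with 99.9% of the counts. All 12 libraries entered 1 edgeR model (edgeR 4.0.16, R 4.3.3) with 3 groups, TMM factors and 9 residual degrees of freedom. DESeq2 1.42.0, limma 3.58.1 (voom), other scalings and filters, left-out libraries and batches were alternatives. All 12 same-numbered pairs deviated together (r 0.306 to 0.735). Pairs with different numbers had r of -0.461 to 0.445, so both ranges overlap. The labels give each number a batch. On that ground the numbers pair the samples, and blocked values stand beside results they change. Named genes were all 10 members, up to 3 called genes of each list with the smallest p (or the 1 smallest) and a few fixed markers. Members and lists were chosen with earlier results of these data known. The fits were checked on simulated counts.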

Additional observations from a re-analysis of the deposited data

Results flagged for a closer look

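Among 27 groups of 4 libraries checked for a value far from the others, 4 held one. For continuous values chance alone marks about 1 in 20 groups. That rate does not apply to the few, often tied counts of Arg1 and Lyve1 below. Mrc1 was at 1192 CPM in vehicle replicate 3, against 649 to 730 CPM in the other vehicle replicates; without that library its change with full-length NfL was -0.68 with an edgeR adjusted p of 0.109. Arg1 was at 0.304 CPM in vehicle replicate 1, or 7 counts, against 0.0803 to 0.0865 CPM in the others. Arg1 was also higher in full-length replicate 4, at 0.0949 CPM, than in the other full-length replicates, at 0.0340 to 0.0419 CPM, which is a difference between 2 counts and 1 count. Lyve1 was at 0.0432 CPM in vehicle replicate 4, from 1 count, and at 0 in the other vehicle replicates.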

How the results depend on the processing

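With full-length NfL against vehicle, 5 of the tested genes were called; the count was 3 to 5 when 1 library was left out, 2 (1 higher, 1 lower) without the 3 libraries of batch 2 and 1 (F13a1, lower) without those of batch 4, while the replicate block gave 6 and the other alternatives stayed within 1.5 times. Leaving out batches was chosen after seeing the data. In this comparison some calls of other named genes were kept without any single library but lost without a batch. Those of Il2rg, Ptpn6, Irf7, Siglec1, Cd209f, Matk and Hmox1 were lost without batch 2 and without batch 4. Those of Blvrb, Gas6 and Cx3cr1 were lost without batch 4. With coiled-coil NfL against vehicle the count was 0 under every alternative run. Full-length against coiled-coil NfL gave 0 genes, also with each library left out, but 4 with the replicate block and 2 with the DESeq2 test. The replicate block changed no other call of the 10 genes. Over all genes, the calls were 3656, 0 and 399 in the 3 comparisons in the order above, 6432, 2 and 2806 with the replicate block, and 4189, 34 and 1297 with DESeq2. The first was 2417 and 2384 without vehicle replicate 4 and full-length replicate 2, and 1096 and 570 without batch 2 and batch 4. The second was 26 without coiled-coil replicate 1 and 12 without batch 1. The third was 32 to 601 with 1 library left out (32, 37, 90, 90 and 169 without full-length replicates 2 and 4 and coiled-coil replicates 1, 3 and 4, 215 and 249 without vehicle replicates 2 and 4, and 601 without full-length replicate 1), 0, 1, 118 and 216 without batches 2, 4, 3 and 1, and 168 with only the groups compared. Upper-quartile factors moved full-length NfL against vehicle from 2062 higher and 1594 lower to 1691 and 2003; the median of all genes then lay at -0.08, against -0.02. Directions turned for 3 genes. Cd163 with coiled-coil NfL (0.003) was -0.035 with the block, -0.004 with DESeq2 size factors, -0.021 with upper-quartile factors, -0.292 with limma-voom, -0.008 with only the 2 groups compared, -0.483 and -0.093 without batch 3 and batch 4, and -0.715 to 0.313 with 1 library left out. Between both forms of NfL, Cd163 (-0.56) was -1.314 to 0.165 with 1 library left out and 0.263 without batch 3. With full-length NfL, Ctbs was -0.007 with upper-quartile factors and -0.002 to 0.085, and P2ry12 -0.423 to 0.13, with 1 library left out. The cause was not tested. Depth limits Cd163, Arg1 and Lyve1, which had at most 28, 7 and 5 counts in a library.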
